A study of Mus musculus with 42 samples.

Results

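The AP-1 transcription factor subunits Fos, Fosb, Fosl1, Fosl2, Jun, Junb, Jund and Atf3, together with the immediate early genes Egr1 and Ier2, were followed in mouse colon RNA-seq. The 10 genes were chosen by symbol, out of 20462 genes listed across the 9 tables of normalized counts. Each table holds 1 comparison, all 10 genes were present in all 9 tables, and all 10 passed the filter on low values in each of them (a mean normalized count of at least 10 over the libraries of the table).

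All mice were C57/BL6 and at least 8 weeks old. Mtg16-null mice and mice homozygous for the P209T point mutation in Mtg16 (T/T) were bred in independent colonies, and each mutant was set beside WT littermates of its own colony. Mtg16 (symbol Cbfa2t3 in the tables) encodes a transcriptional corepressor. Epithelial crypts were freed with EDTA from the proximal colon of untreated mice (2 Mtg16-null and 2 WT of that colony, 2 T/T and 2 WT of the other) and from the distal colon of untreated mice (4 Mtg16-null and 4 WT, 4 T/T and 3 WT). Distal crypts were also taken after dextran sodium sulfate (DSS), a detergent that injures the colon epithelium, given at 2% for 5 days and followed by 4 days of water (4 Mtg16-null and 3 WT, 3 T/T and 3 WT). Distal tumors were dissected from T/T mice (3) and their WT littermates (3) that had received 10 mg/kg azoxymethane (AOM) and 3 cycles of 3% DSS, with 4 days of DSS and 16 days of water in each. Mtg16-null tumors were not analysed here. Nothing in the labels says which libraries came from separate mice, so p-values measure the spread between these libraries, which may be technical.

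AP-1 is a dimer. A Jun protein (Jun, Junb or Jund) pairs with itself, with a Fos protein (Fos, Fosb, Fosl1 or Fosl2) or with an ATF protein such as Atf3, and the pair binds the palindromic site TGANTCA or the related TGACGTCA. Most of these genes are transcribed within minutes of a growth factor, wound or stress signal, before any new protein is made, and their mRNAs are short-lived. Jund is the exception, since it is made steadily in resting cells, and Fosl1 and Fosl2 usually follow the first wave. Egr1, a zinc finger transcription factor, and Ier2, a small nuclear protein, belong to the same early response and are not part of AP-1. In the colon, growth factors, injury and Ras signaling are all known to drive these genes.

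The proximal promoters of 4 of them are shown because these genes share a core element and 3 of the 4 also varied together from library to library. The sequences are from RefSeq (GRCm38.p6), in which promoters of 7 of the 10 genes were read. Each run is the 150 bases before the RefSeq start, and capitals mark TGACG, the core of the cAMP response element bound by CREB and ATF proteins, or its reverse complement CGTCA.
Fos (chr12:85473740-85473889, + strand): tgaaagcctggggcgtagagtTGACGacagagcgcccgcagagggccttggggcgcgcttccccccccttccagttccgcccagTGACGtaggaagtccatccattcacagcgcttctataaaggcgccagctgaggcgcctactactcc
Fosb (chr7:19310046-19310195, - strand): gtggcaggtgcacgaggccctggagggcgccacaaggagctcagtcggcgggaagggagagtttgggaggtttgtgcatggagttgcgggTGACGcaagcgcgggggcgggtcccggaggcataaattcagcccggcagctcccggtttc
Junb (chr8:84978749-84978898, - strand): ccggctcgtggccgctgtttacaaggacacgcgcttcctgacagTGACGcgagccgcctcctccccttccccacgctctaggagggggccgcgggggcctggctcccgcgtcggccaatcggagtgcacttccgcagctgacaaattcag
Atf3 (chr1:191183334-191183483, - strand): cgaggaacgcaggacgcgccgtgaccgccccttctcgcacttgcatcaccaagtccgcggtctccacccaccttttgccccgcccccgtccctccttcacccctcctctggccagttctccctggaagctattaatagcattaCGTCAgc

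The match begins 129 and 66 bases before the start of Fos, 60 before that of Fosb, 106 before that of Junb and 7 before that of Atf3. TGACG on either strand was present in 4 of the 7 promoters (300 bases each, 250 before the start and 50 after it) and in 20.8% of 32851 mouse promoters of the same length. The full palindrome TGACGTCA was in 0 of the 7 (1.79% of all promoters), the AP-1 site TGANTCA in 0 of the 7 (7.81%) and the CArG box read by serum response factor in 0 of the 7 (1.63%). TATAAA on the gene's strand was in 2 of the 7, Fos among them (8.32%), and CANNTG, the E-box read by E proteins, in 6 of the 7 (72.3%). All other motifs were searched on both strands, and every TGACGTCA match also holds TGACG. The RefSeq start of Jund lies upstream of its GENCODE gene, so that its window holds none of that gene, and those of Atf3 and Fosl2 lie inside theirs. These are letters within a short window and say nothing of binding.

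Depth and labels were examined first. The normalized counts of 38 libraries could be turned back into whole reads, 32231389 to 74661887 per library (median 46659626). For the 4 proximal mutant libraries only normalized totals were obtained (44178091 to 49481757). Summed markers of colon epithelium (9 of 9 measured, Epcam and Cdx2 among them) lay between 15045 and 24086 RPM (reads scaled to a common library total) in all crypt libraries. The library labelled Mtg16-null distal replicate 2 went against its segment label. Hoxd13, a gene of the distal gut, was at 0 in it, as in all 8 proximal libraries, whereas the other 27 distal crypt libraries held 14.3 to 149 RPM, and Hoxb13 was at 5.38 against 203 to 517 in those 27. The log2 differences of the 10 genes in Mtg16-null distal crypts, the tests between effects and the correlations are given with and without this library. Cbfa2t3 was lower in Mtg16-null than in WT crypts after DSS (427 to 595 against 1845 to 2519 normalized counts, log2 difference -2.02, adjusted p = 0.00292). It did not pass the test in proximal (631 to 1057 against 1634 to 3221) or distal crypts at baseline, where the groups overlapped (424 to 1095 against 1027 to 1809, with the highest mutant library at 694 once the library of doubtful label was left out).

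Levels of the 10 genes spanned a wide range. In RPM per kilobase of exon, the median over the 42 libraries was 229 for Jund, the steady subunit, then 64.1 for Junb, 59.8 for Ier2, 43.9 for Fos, 31.3 for Jun, 23.5 for Fosl2, 12.2 for Atf3, 2.68 for Egr1, 0.500 for Fosb and 0.430 for Fosl1. Jund, Junb and Ier2 were thus the most abundant transcripts per length, and Fosb and Fosl1 the least. Tables were normalized separately, so the levels across conditions that follow are a description in RPM of each library, without a test.

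Fosl1 and Jun separated tumors from crypts completely. Fosl1, an AP-1 subunit known for invasive and wound-edge epithelium, ranged from 0.078 to 2.19 RPM in the 36 crypt libraries and from 5.09 to 11.2 in the 6 tumors. Jun, the founding AP-1 subunit, ranged from 60.9 to 160.0 in crypts and from 252 to 470.4 in tumors. Egr1 also did so, with 4.04 to 30.1 in crypts and 33.7 to 178 in tumors. In each of these 3 genes the lowest tumor lay above the highest crypt library. The other 7 overlapped between crypts and tumors: Fosb reached 7.59 in crypts and started at 4.77 in tumors, Fos was 44.2 to 182 in crypts and 75.7 to 459.8 in tumors, and Jund was 249.8 to 586 in crypts and 268 to 461 in tumors. The tumors were whole dissected pieces, with fibroblast markers (6 genes) summing to 2634 to 3607 RPM against 0.5 to 78.7 in crypts. The names of all tumor libraries began with 5698, a number that no crypt library carried and whose meaning the labels do not give. Tissue preparation, this number, cell content and tumor state cannot be told apart in this contrast. In bulk RNA fewer cells of a type and less RNA per cell cannot be told apart either.

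**Figure D1:**
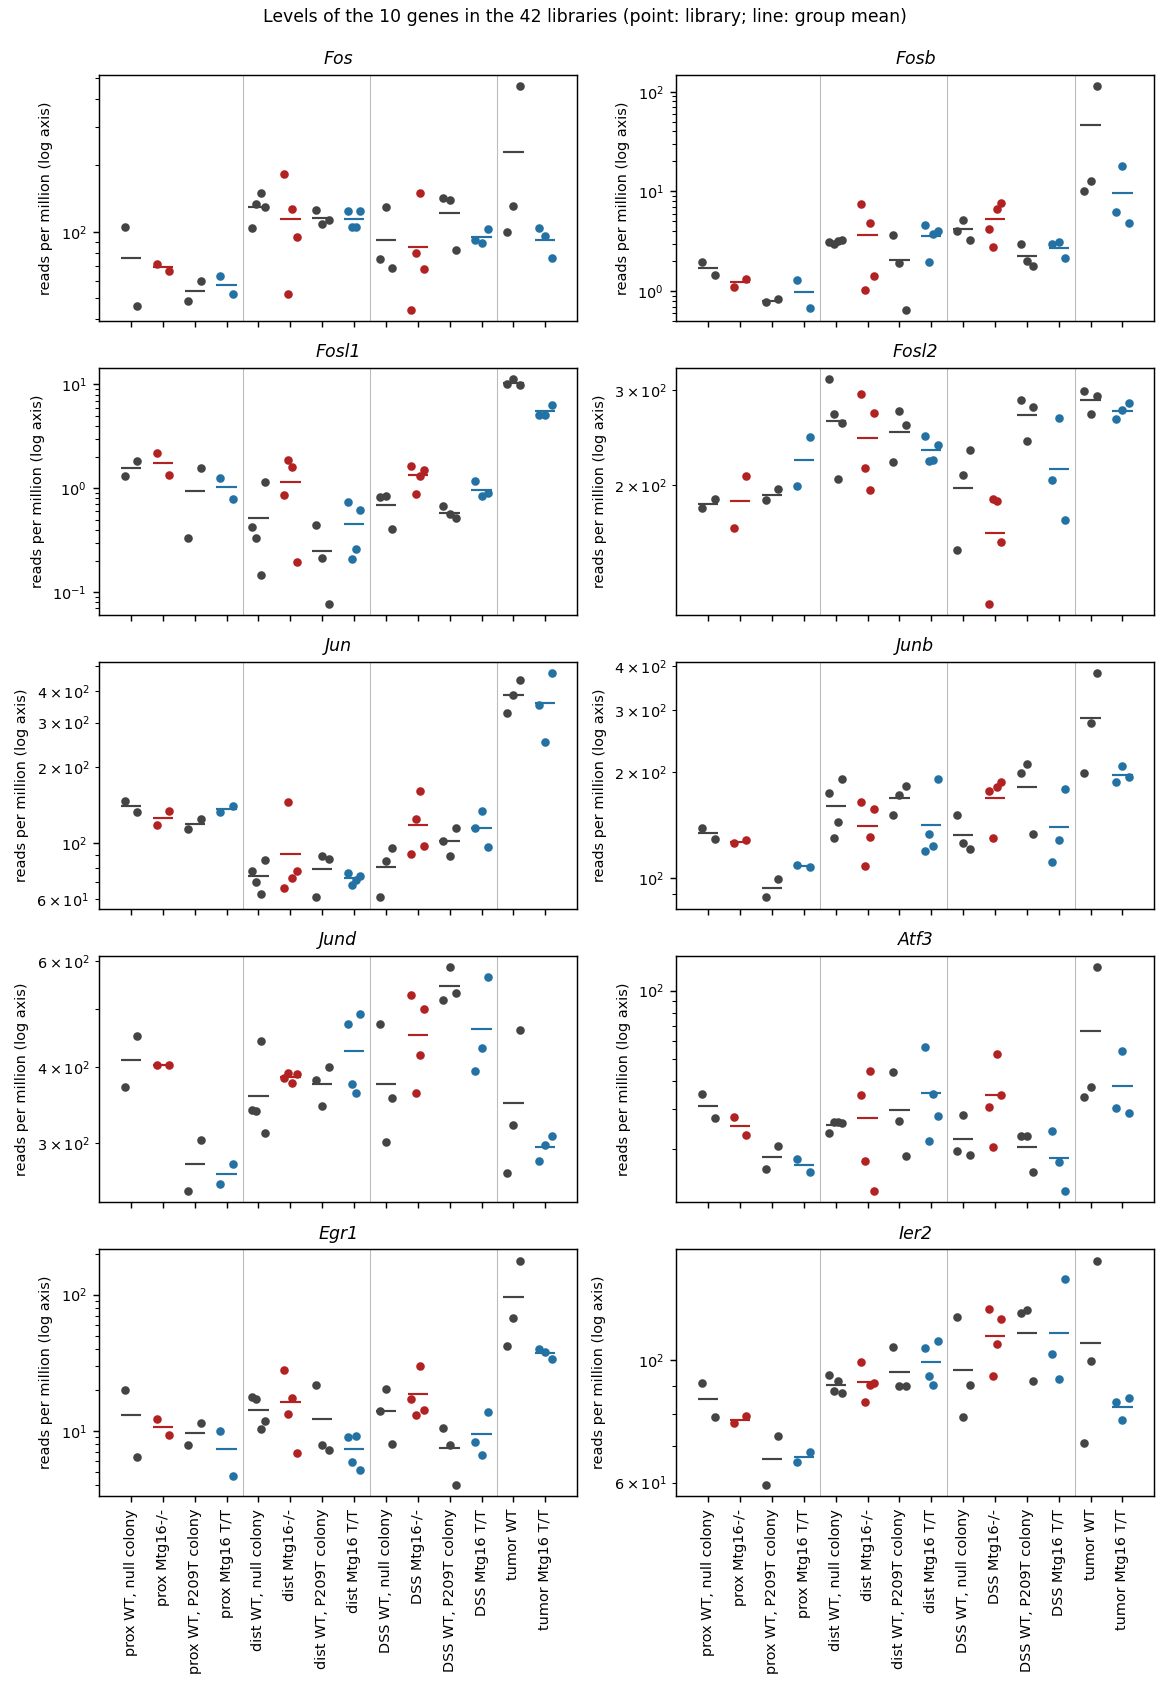
Level of each gene in RPM (log axis) in the 42 libraries, arranged by segment, treatment and genotype along the horizontal axis, with points for libraries, lines for group means, and gray for WT, red for Mtg16-null (Mtg16-/-) and blue for T/T. Fosl1, Jun and Egr1 lie higher in all 6 tumors than in any crypt library, and WT tumor replicate 3 is the top point for Fos, Fosb, Junb, Atf3, Egr1 and Ier2.

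Among the crypt groups Jun had means of 119 to 139.7 RPM in the 4 proximal groups and 72.5 to 90.4 in the 4 distal ones at baseline, the highest of these being the group with the library of doubtful label (72.1 without it). Fosl1 was lowest in WT distal crypts of the P209T colony (0.247 ± 0.187 RPM, SD, n = 3) and highest in Mtg16-null proximal crypts (1.77 ± 0.596, n = 2), with Mtg16-null crypts after DSS at 1.34 ± 0.329 (n = 4). These rest on few reads, 3 to 17 per library in the lowest group, so that neighboring groups in the order were not distinguishable. Jund was highest in WT crypts after DSS of the P209T colony (545 ± 36.9, n = 3), above the WT crypts of the same colony at baseline (376 ± 27.8, n = 3). In the WT crypts of the other colony Jund had the same mean after DSS (376 ± 86.8, n = 3) as the baseline group just named, and at baseline it was 358 ± 57.5 (n = 4). Whether Jund differed in its response between the colonies was not tested.

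The response of WT distal crypts to DSS was read in the P209T colony, with 3 libraries after DSS and 3 at baseline. Jund was the only one of the 10 genes to pass the test. It rose from 17589.6, 16239 and 19043 normalized counts at baseline to 25021, 28999.5 and 25223 after DSS, without overlap, a log2 difference of 0.58 (SE 0.11, 95% interval 0.31 to 0.85, adjusted p = 0.0149, higher in 3 of 3). Over all 13566 genes tested, 35.6% passed, so 1 of 10 is below the background share.

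Fosl1 and Jun were also higher in each of the 3 libraries after DSS without passing the test. Fosl1 had 32.5, 27.9 and 24.5 normalized counts after DSS and 20.6, 10.1 and 3.69 at baseline (log2 difference 1.48, SE 0.56, adjusted p = 0.0782). Jun had 4951, 4400.3 and 5451 after DSS and 2816, 4186 and 4108 at baseline (0.43, SE 0.18, adjusted p = 0.105). In RPM its lowest library after DSS (88.9) fell just below the highest at baseline (89.0). In normalized counts 3 of the 10 genes, and 55.3% of all genes, showed no overlap between groups, and the smallest exact permutation p with 3 against 3 is 0.1. Most of the exon sequence of Fosl1 (1163 bases, 57.2%) overlaps Ccdc85b on the opposite strand. Strand use is not given in the sources used here, so reads of the 2 genes cannot be told apart there. Ccdc85b itself rose after DSS (0.67, SE 0.17, adjusted p = 0.0269). Strand is likewise open for Jund, of whose exon sequence 52.6% (877 bases) overlaps the antisense gene Gm11175.

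The classical early genes overlapped between baseline and DSS. Fos, the inducible partner of Jun, had 6898, 6917 and 3916 normalized counts after DSS against 5792, 5111 and 5406 (log2 difference 0.07, 95% interval -0.48 to 0.63). Fosb (0.44, SE 0.60), Fosl2 (0.15, SE 0.13), Junb (0.13, SE 0.21) and Ier2 (0.28, SE 0.16) had positive differences, and Atf3 (-0.42, SE 0.33) and Egr1 (-0.57, SE 0.52) negative ones. The third DSS library carried the lowest value of the 3 for Fos, Fosb, Fosl1, Junb, Atf3, Egr1 and Ier2.

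Several values moved with this comparison. The names of all baseline libraries began with 5094 and those of all DSS libraries with 5740. This number is called the request here, and the labels do not say what it marks. Treatment and request thus cannot be told apart. Across all genes the log2 difference rose with GC content (Spearman rho 0.70 across genes, which are not independent replicates). Jund has the 99.8th percentile of GC among 16490 tested genes, Junb the 98.7th and Ier2 the 97.1st. With the trends with transcript length and GC removed from each library, the difference of Jund turned to -0.20 (adjusted p = 0.313), which is 0.10 above the median of all genes (-0.30) in that fit. In the same fit 4 of the 10 genes passed as lower after DSS: Fos (-0.55, adjusted p = 0.0166), Junb (-0.63, adjusted p = 0.00926), Ier2 (-0.47, adjusted p = 0.0214) and Atf3 (-1.05, adjusted p = 0.0297), when 36.1% of all genes passed. Relative to that median they stood at -0.25, -0.33, -0.17 and -0.75. Jun (-0.27), Fosb (-0.21) and Fosl2 (-0.20) also took a negative sign without passing, and stood at 0.03, 0.09 and 0.10 relative to that median. The sign of the difference in Jund, Fos, Junb, Ier2, Jun, Fosb and Fosl2 after DSS thus differed under the 2 treatments of GC. Relative to the median of all genes in each fit, Jund, Jun, Fosb and Fosl2 stayed above it, and Fos, Junb and Ier2 moved below it. The part of GC in the result was not tested.

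The Jund call was also lost when some single libraries were left out. Its adjusted p by limma was 0.0690 without DSS replicate 1, 0.0617 without baseline replicate 1 and 0.0717 without baseline replicate 2, with the difference between 0.51 and 0.64 in all single leave-outs. Over all genes 491, 683 and 1 passed in these fits, in that order, against 4833 in the main fit. Without DSS replicate 3, 5 of the 10 genes passed as higher (Jund, Fosl1, Ier2, Junb and Fos), and 66.9% of all genes passed. Over all genes 1897 were higher and 2936 lower after DSS in the main fit, 2178 and 2194 by edgeR on recovered reads, and 1059 and 3845 with the length and GC trends removed. Summed goblet markers (3 of 4 measured) were 8928 to 11359 RPM at baseline and 17178 to 18809 after DSS, and those of colon epithelium 16701 to 18203 and 18871 to 24086. Of the fibroblast markers measured, 2 of 4 also passed as higher (sums 0.947 to 2.38 and 2.97 to 7.34). The part of these cells in the differences was not tested.

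The genes around AP-1 showed which neighbors moved in the same comparison. The counts of the lists stand beside 35.6% of all 13566 genes that passed, 1897 of them higher and 2936 lower after DSS. Of 19 measurable AP-1 target genes on the list, 7 rose after DSS and 0 fell, with a median log2 difference of 0.50 against 0.00 for all genes. Mmp7, an epithelial matrix protease, was 2.16 higher (SE 0.37), Hmox1, which degrades heme, 1.13 (SE 0.21), and Itgb4 and Lamb3, both parts of the anchorage of epithelium to its basement membrane, 1.00 (SE 0.12) and 0.85 (SE 0.19). Of 17 dimer partners and relatives 0 rose and 3 fell: Creb1 (-2.75, SE 0.33), Atf2 (-1.69, SE 0.32) and Atf1 (-0.99, SE 0.24), all factors of the cAMP response element. Among 39 further immediate early genes 7 rose and 3 fell, led by the clock gene Per1 (1.79, SE 0.16) and the kinase gene Sgk1 (1.56, SE 0.36) upward and by Egr3 (-1.70, SE 0.52) and Klf6 (-1.54, SE 0.48) downward. Of 23 upstream kinases and serum response factors 5 rose and 4 fell, and those with the largest differences were all lower: Rps6ka3 (-2.91, SE 0.46), Rps6ka5 (-2.55, SE 0.46), and the Jun kinases Mapk8 (-1.64, SE 0.47) and Mapk9 (-0.89, SE 0.24). Among 12 heat shock genes 3 rose and 2 fell. The GC trend and the request apply to all of these values.

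Along the colon, 7 distal and 4 proximal libraries of untreated WT mice of both colonies were compared. In normalized counts Jun was lower and Fos higher in every distal than in every proximal library. Jun had 3506, 3103, 2731 and 4020.1 normalized counts in the distal libraries of the null colony, 2581, 3897 and 3856 in those of the P209T colony, and 6373, 6259, 5286 and 5640.4 in the 4 proximal ones. All proximal libraries lay above all distal ones, with a log2 difference of -0.81 (SE 0.12, 95% interval -1.08 to -0.55, adjusted p = 1.22e-04, two-sided exact permutation p = 0.00606, the smallest that 7 against 4 allows). Fos had 4712, 5929, 6501, 6041, 5309, 4759 and 5074 in distal crypts and 4576, 2177, 2257 and 2718 in proximal crypts. Its groups did not overlap either, with proximal replicate 1 of the null colony closest to the distal libraries (0.96, SE 0.17, 95% interval 0.59 to 1.33, adjusted p = 4.78e-04, exact permutation p = 0.00606). In RPM that library, at 106, lay above the lowest distal one, at 104.

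In all, 6 of the 10 genes passed the test between segments, 4 higher and 2 lower in distal crypts, when 42.1% of 13841 genes passed (20.1% higher, 22.0% lower). Groups did not overlap in 2 of the 10 and in 30.0% of all genes. Fosl1 was lower in distal crypts, at 3.46 to 54.0 normalized counts (median 14.7) against 15.5, 57.3, 71.5 and 87.2 in proximal crypts (-1.81, SE 0.62, adjusted p = 0.0307). Its groups overlapped through the lowest proximal library, which lay below 3 of the 7 distal ones. Fosl2, the most abundant Fos relative in these crypts after Fos per length, was higher (8908 to 14236, median 11994, against 7854 to 8931; 0.40, SE 0.11, adjusted p = 0.0104). Junb, which often opposes Jun in proliferating cells, was higher too (5752 to 8969.7, median 7513, against 4101 to 6116; 0.49, SE 0.14, adjusted p = 0.0112), as was Ier2 (3887 to 4465, median 4011, against 2766 to 3951; 0.26, SE 0.09, adjusted p = 0.0254).

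The remaining 4 did not pass. Fosb, a close relative of Fos, had 28.9 to 153 normalized counts in distal crypts (median 139) and 36.2 to 85.2 in proximal crypts, a difference of 0.98 (SE 0.42, adjusted p = 0.0790). It passed by edgeR (adjusted p = 0.0445) and DESeq2 (adjusted p = 0.0141) on recovered reads, so its call rests on the method. Jund (0.07, 95% interval -0.22 to 0.36), Atf3 (0.12, -0.32 to 0.56) and Egr1 (0.22, -0.49 to 0.93) overlapped between segments.

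**Figure D2:**
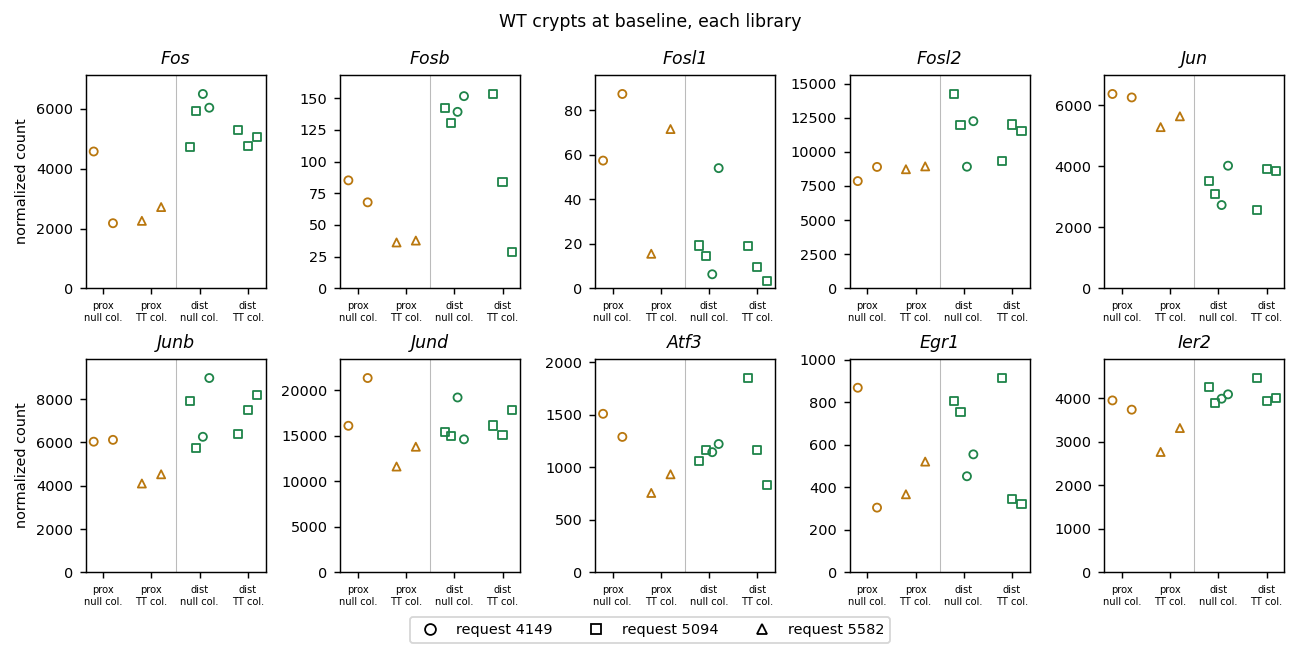
Normalized count of each gene (linear axes from 0) in the 11 libraries of untreated WT crypts, with orange for proximal, green for distal, columns for the null and the P209T (TT) colony, and marker shape for the request (the number that begins the library name). Jun is higher in all 4 proximal libraries (5286 to 6373) than in all 7 distal ones (2581 to 4020.1), and Fos is the reverse.

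Segment and request, the number that begins a library name, were partly confounded, since proximal libraries carried 4149 and 5582 and distal ones 4149 and 5094. With request as a covariate Jun (-0.93, adjusted p = 0.00646) and Fos (0.99, adjusted p = 0.0174) passed, 2 of the 10 genes when 23.0% of all genes did. The calls of Fosl1 (-1.84, adjusted p = 0.229), Fosl2 (0.32, adjusted p = 0.247), Junb (0.30, adjusted p = 0.293) and Ier2 (0.07, adjusted p = 0.685) were lost. Within request 4149 alone, with 2 libraries a side, Jun passed (adjusted p = 0.0430) and Fos did not (0.99, adjusted p = 0.149), when 13.2% of all genes passed. The Fosl1 call ended without any one of 5 single libraries, and the Ier2 call without either proximal library of the P209T colony (adjusted p = 0.0915 and 0.0668). T cell markers (6 genes) summed to 44.5 to 66.8 RPM in the proximal and 6.67 to 24.5 in the distal WT libraries, with 5 of the 6 lower in distal crypts, and goblet markers to 4354 to 5697 and 8928 to 15752. Their part in the differences of Jun and Fos was not tested.

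The lists around AP-1 held genes of both directions between segments, to be read beside the 20.1% of all genes higher and the 22.0% lower in distal crypts. Of 42 further immediate early genes 14 were higher and 6 lower in distal crypts, with Klf2 at 1.38 (SE 0.23), the nuclear receptor Nr4a1 at -1.08 (SE 0.25), Gem at -1.05 (SE 0.30) and Ier3 at -1.02 (SE 0.17). Of 18 partners and relatives 3 were higher and 4 lower, among them Batf (-1.95, SE 0.63), which lymphocytes express, Atf5 (-1.07, SE 0.10), the oxidative stress factor Nfe2l2 (-0.88, SE 0.10) and its repressor Bach1 (0.44, SE 0.12). Of 17 AP-1 targets 3 were higher and 7 lower, the largest being Mmp7 (-5.07, SE 0.31), tissue factor F3 (2.65, SE 0.24), the growth factor Ereg (-2.09, SE 0.29) and Sprr1a (-2.09, SE 0.24). Of 23 upstream genes 7 were higher and 3 lower, and of 12 heat shock genes 3 and 2. List medians were 0.11, 0.09, -0.10, 0.15 and -0.16 in the order named, beside 0.00 for all genes.

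Loss of Mtg16 was examined in proximal and distal crypts at baseline. None of the 10 genes passed the test in either segment, when 0.0645% of 13944 genes passed in proximal and 0.239% of 13831 in distal crypts. By limma, 0 of the 10 had an unadjusted p under 0.05 in either, beside 5.96% and 4.63% of all genes. In proximal crypts, with 2 libraries a side, Fosb had 53.7 and 65.9 normalized counts in Mtg16-null and 91.9 and 72.4 in WT (log2 difference -0.45, 95% interval -1.27 to 0.37). Atf3, the stress-induced ATF subunit, had 1334 and 1141 against 1627 and 1375 (-0.28, -0.64 to 0.09). Jun, Junb and Ier2 were likewise lower in both mutant libraries, so in normalized counts 5 of the 10 lay below WT without overlap, beside 18.1% of all genes. In RPM only Fosb and Junb stayed apart. The higher mutant library there lay above the lower WT one for Jun (133.7 against 132.4), Atf3 (27.6 against 27.3) and Ier2 (79.14 against 79.09). The exact permutation test of 2 against 2 cannot go below 0.333.

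In distal crypts the groups of 4 overlapped for all 10 genes, while 3.75% of all genes did not overlap (6.58% without the library of doubtful label, and again 0 of the 10). Fos had 8345, 2380.0, 5558 and 4340.1 normalized counts in Mtg16-null and 4825, 6089, 6683 and 6179.8 in WT (-0.33, SE 0.33), so that the mutant libraries held both the highest and the lowest values. Fosb showed the same spread, with 344, 47.1, 209.3 and 65.4 against 146, 134, 143 and 155, as did Atf3 with 1577, 809, 1935 and 603 against 1087, 1193, 1176 and 1249.7. Jun had 3035, 6608, 3179 and 3564 against 3589.5, 3186, 2807 and 4113 (0.20, SE 0.24), and its high value was in the library labelled Mtg16-null distal replicate 2. Without that library Jun stood at -0.06 (SE 0.13), Fos at -0.01 (SE 0.21) and Fosl1 at 0.67 (SE 0.80) instead of 1.04 (SE 0.80). Fosb turned from -0.24 to 0.22 (SE 0.47), Atf3 from -0.09 to 0.06 (SE 0.34) and Ier2 from -0.01 to 0.02 (SE 0.08), while Junb moved from -0.22 to -0.11 (SE 0.16), Fosl2 from -0.13 to -0.08 (SE 0.19), Jund from 0.10 to 0.08 (SE 0.11) and Egr1 from 0.04 to 0.08 (SE 0.42). Again 0 of the 10 passed, while the genes called rose from 33 to 146 (1.06%). The requests 4149 and 5094 each held 2 libraries a side, and with request as a covariate 0.0578% of all genes and 0 of the 10 passed.

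After DSS, Mtg16-null distal crypts held higher values of Fosl1 and Jun than WT, but neither passed the adjusted test. Fosl1 had 94.1, 46.9, 74.4 and 86.3 normalized counts in Mtg16-null and 47.6, 46.9 and 21.9 in WT (log2 difference 0.98, SE 0.39, unadjusted p = 0.0310, adjusted p = 0.332 by limma). Jun had 5157, 6593, 8973 and 5605 against 3486, 4742 and 5181 (0.54, SE 0.22, unadjusted p = 0.0323, adjusted p = 0.337 by limma). Both genes overlapped between genotypes by 1 library. Of the 10 genes 0 passed, when 0.629% of 14476 genes did, and these 2 were the ones with an unadjusted p under 0.05, beside 12.4% of all genes. Groups overlapped in all 10 genes and did not in 11.4% of all genes.

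Libraries with the same replicate number deviated together in this comparison, so a blocked fit is given beside it. With the replicate number as a block, which leaves Mtg16-null replicate 4 without a partner, Jun passed (0.61, SE 0.10, adjusted p = 0.00879), 1 of the 10 when 8.78% of all genes passed, and Fosl1 did not (0.90, adjusted p = 0.168). In the fit without the block Junb (0.35, SE 0.19), Jund (0.28, SE 0.22), Atf3 (0.59, SE 0.31), Egr1 (0.42, SE 0.37), Fosb (0.26, SE 0.37) and Ier2 (0.22, SE 0.19) had positive differences, and Fos (-0.18, SE 0.37) and Fosl2 (-0.27, SE 0.19) negative ones. Myeloid markers (8 genes) summed to 261 to 545 RPM in Mtg16-null and 177 to 235 in WT libraries, 5 of the 8 without overlap, and fibroblast markers to 8.48 to 78.7 and 7.15 to 9.04. Their part in these differences was not tested. Of the lists around AP-1, 1 gene of 44 further immediate early genes passed, Sgk1, a serum- and glucocorticoid-induced kinase (1.00, SE 0.13, adjusted p = 0.0155), and 0 of 26 targets, 19 partners, 23 upstream genes and 12 heat shock genes did, all in the fit without the block. With the block 9 of the 26 targets, 4 of the 44 early genes, 2 of the 19 partners, 1 of the 23 upstream genes and 2 of the 12 heat shock genes passed, all higher in Mtg16-null, beside 8.78% of all genes, as did 7 of the 8 myeloid markers.

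The P209T mutation was compared with WT in 3 crypt settings, and 0 of the 10 genes passed in any of them. The share of all genes that passed was 0.232% in proximal crypts, 0.0369% in distal crypts and 0.0% after DSS. After DSS 1197 genes (8.77%) and 0 of the 10 had an unadjusted p under 0.05 by limma, and 0 genes passed by edgeR and 334 (2.45%) by DESeq2, none of the 10 among them. In proximal crypts Jun (0.20, SE 0.08, unadjusted p = 0.0485, adjusted p = 0.413 by limma) and Junb (0.21, SE 0.08, unadjusted p = 0.0430, adjusted p = 0.402 by limma) were higher in both T/T libraries, as was Fosl2, 3 of the 10 beside 22.6% of all genes without overlap in that direction. An unadjusted p under 0.05 was found in 12.0% of all genes there. Among the lists Mmp7 alone passed there, lower in T/T (-2.01, SE 0.19).

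In distal crypts at baseline the 10 differences ran from -0.62 (Egr1) to 1.00 (Fosb), with overlap in every gene (7.7% of all genes did not overlap) and 0 unadjusted p under 0.05 (4.65% of all genes). Across all genes the difference rose with GC content there (Spearman rho 0.55). With length and GC trends removed Egr1 stood at -0.78 and Fosb at 0.85. Fosl1 was the one gene of the 10 without overlap after DSS, at 54.7, 41.5 and 46.5 normalized counts in T/T and 35.3, 30.1 and 25.8 in WT (0.63, SE 0.30, adjusted p = 0.636), beside 5.66% of all genes in that direction. The largest negative differences after DSS were those of Junb (-0.46, SE 0.29), Fosl2 (-0.43, SE 0.19) and Fos (-0.41, SE 0.27), whose groups overlapped. Across all genes the log2 difference after DSS fell with GC content (Spearman rho -0.48). With length and GC trends removed, Junb stood at -0.20, Fosl2 at -0.33 and Fos at -0.12, where the median of all genes was 0.12. The part of GC in these values was not tested.

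**Figure D3:**
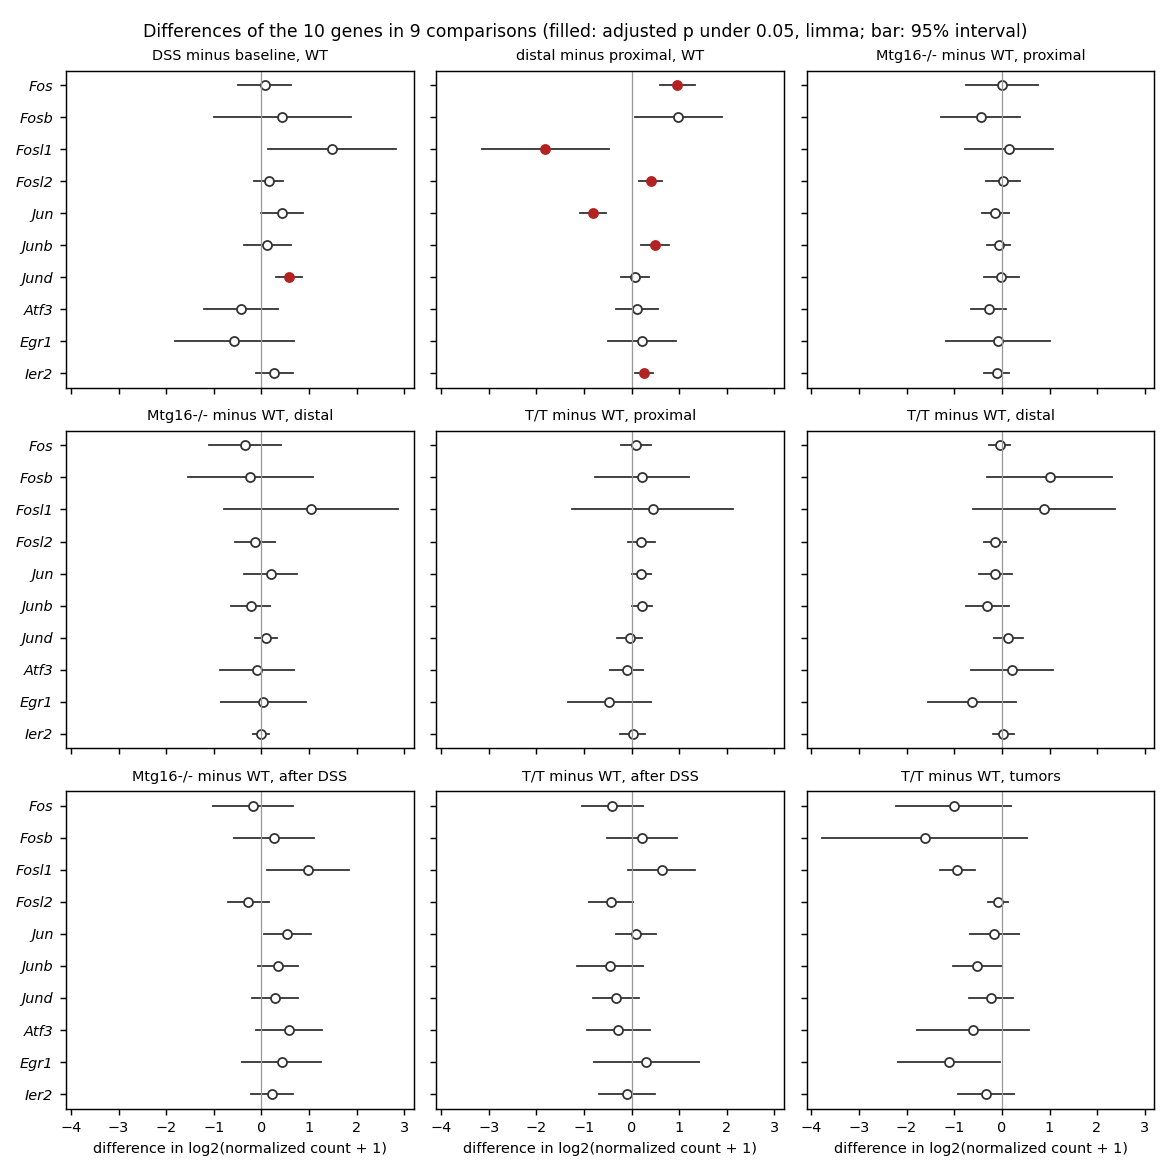
Difference in log2(normalized count + 1) of the 10 genes in the 9 comparisons, 1 panel each, with points for estimates, bars for 95% intervals and filled points for an adjusted p under 0.05 by limma. Filled points occur in the DSS panel (Jund) and the segment panel (6 genes) and in none of the 7 genotype panels.

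In tumors, Fosl1 was lower in T/T than in WT in every library. This was known when the genes were chosen, so the values are given as a description of it, without a test. Fosl1 had 249.3, 247 and 301 normalized counts in T/T tumors and 487, 536 and 499.8 in WT tumors, with little spread in either group, 266 ± 30.7 against 508 ± 25.7 (SD, n = 3 each). The ratio of WT to T/T was 1.91 and the log2 difference -0.93 (SE 0.16). Leaving out single tumors moved the Fosl1 difference between -1.03 and -0.89. Ccdc85b, which overlaps Fosl1, had 1310 to 1662 normalized counts in T/T and 1426 to 2403 in WT tumors, overlapping between groups (-0.38, SE 0.20).

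The other 9 genes also had negative differences, and 1 WT tumor weighed on most of them. Over 15900 genes 0 passed by limma (0.0%) and by edgeR, 392 (2.47%) had an unadjusted p under 0.05 by limma, with Egr1 among them, and 24 (0.151%) passed by DESeq2 on recovered reads, with none of these 9 among them. Egr1 had 1954, 1860.0 and 1598 normalized counts in T/T and 2041, 3210.3 and 8899 in WT tumors (-1.11, SE 0.46, adjusted p = 0.998). Fos had 5043, 4650.5 and 3591 in T/T and 4852, 6245 and 23002 in WT (-1.02, SE 0.52), and Fosb 304, 865 and 227 in T/T and 492.9, 612 and 5752 in WT (-1.62, SE 0.93). The third WT tumor stood far above the other 5 in these early genes. In normalized counts it was the highest of the 6 libraries for 8 of the 10 genes, all but Fosl1 and Jun, against 29.6% of all genes. In RPM Fosl2 was higher in WT replicate 1 (299) than in this tumor (293). The third WT tumor was also highest for 22 of 44 further immediate early genes, 15 of 26 AP-1 targets and 4 of 12 heat shock genes.

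Without that tumor the differences shrank to -0.33 for Fos, -0.49 for Fosb, -0.51 for Egr1, -0.26 for Junb (from -0.51), -0.03 for Ier2 (from -0.33), -0.04 for Jun (from -0.16) and -0.05 for Fosl2 (from -0.08), and turned to 0.02 for Atf3 (from -0.61) and 0.01 for Jund (from -0.23). The same tumor had the highest sum of colon epithelium markers, 13448 RPM against 9271 to 10173 in the other 5, and its part in these values was not tested. Apart from Fosl1, whose difference was known, the groups did not overlap in 1 gene, Egr1, lower in T/T, beside 2.53% of all genes in that direction. None of 44 further immediate early genes, 26 targets, 19 partners, 23 upstream genes or 12 heat shock genes passed by limma. Across all genes the tumor difference fell with GC content (Spearman rho -0.34), and the part of GC in these values was not tested.

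**Figure D4:**
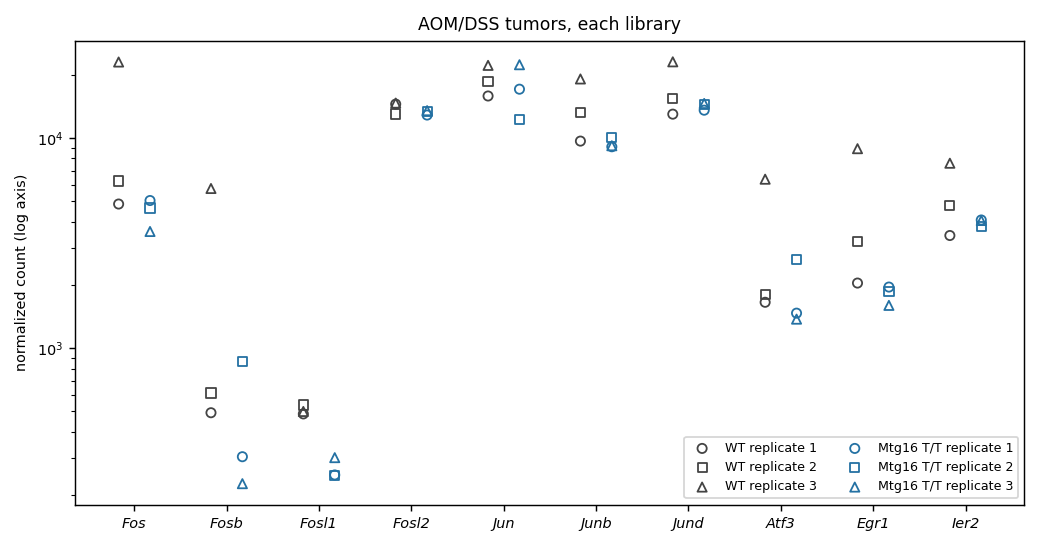
Normalized count (log axis) of the 10 genes in each AOM/DSS tumor, with gray for WT, blue for T/T (Mtg16 T/T) and marker shape for the replicate number. Whether that number pairs the tumors is not given in the labels. The 3 WT values of Fosl1 (487 to 536) lie above the 3 T/T values (247 to 301), and WT replicate 3 stands above the other tumors for Fos (23002) and Fosb (5752).

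Whether genotype effects differed between settings was tested directly for 8 pairs of comparisons, 80 tests over the 10 genes. None passed after adjustment over all genes (0.0372%, 0.0229%, 0.00738%, 0.234%, 0.345%, 0.0%, 0.0148% and 0.0% of all genes passed in the 8), and 7 had an unadjusted p under 0.05, beside 5.15% of all gene tests in the 8. The 7 include Fosl1 in tumors, whose values were known beforehand, so this count cannot be weighed against that share. The largest of the 7 was the tumor effect minus the distal baseline effect of T/T, for Fosb (-2.62, SE 1.08, adjusted p = 0.772). It rests on WT tumor replicate 3, without which the tumor effect of Fosb was -0.49 instead of -1.62. For Fosl1, also among the 7, the same difference rests on the tumor values known beforehand, and its effects of -0.93 in tumors and 0.88 in baseline crypts are a description. Junb gave 3 of the 7, for example a higher effect of Mtg16 loss after DSS (0.35) than of P209T (-0.46), a difference of 0.80 (SE 0.35, adjusted p = 0.763). Across all genes the effect after DSS rose with GC content for Mtg16 loss (Spearman rho 0.31) and fell with it for P209T (-0.48). With length and GC trends removed, these effects on Junb were 0.10 and -0.20, and their difference was not tested. Without the library labelled Mtg16-null distal replicate 2, 0 of the 30 tests it enters passed, when 0.067%, 0.369% and 0.0149% of all genes did in its 3 pairs, and 1 had an unadjusted p under 0.05 (4.56% of all gene tests). That was Jun, for the effect of Mtg16 loss after DSS minus distal baseline (0.60, unadjusted p = 0.0286). Junb, 1 of the 7 in that pair with the library, had an unadjusted p of 0.0870 without it.

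Within groups, 7 of the 10 genes belonged to pairs that moved together from library to library. Group means were subtracted from log2(RPM + 1) in all 42 libraries, and of 45 pairs 10 were correlated after adjustment, all positively (permutation within groups, 100000 draws, threshold 0.05 after Benjamini-Hochberg adjustment). The weakest of the 10 had r = 0.54, and 11.4% of all pairs of 13114 genes reached that value, so that correlation of this size was common in these libraries. Fosb and Atf3 were the closest, with Pearson r = 0.88 and Spearman rho = 0.87 (permutation adjusted p = 9.00e-04 and 4.50e-04) and r = 0.84 without the 2 libraries farthest from the median of Fosb. Fos, Fosb, Atf3 and Egr1 formed a block in which all 6 pairs passed, with r from 0.66 (Fosb and Egr1) to 0.88. Ier2 was tied to Jund (r = 0.78, rho = 0.68, permutation adjusted p = 0.00105), Junb (r = 0.73, rho = 0.65, permutation adjusted p = 0.00234) and Egr1 (r = 0.56, rho = 0.49, permutation adjusted p = 0.0382), and Junb to Jund (r = 0.54, rho = 0.42, permutation adjusted p = 0.0382). By Spearman's rho 8 of the 10 pairs passed, all but the last 2 named.

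By Pearson's r, Jun, Fosl1 and Fosl2 were in none of the 10 pairs. By Spearman's rho Jun with Fosl2 passed too (rho = 0.51, permutation adjusted p = 0.0340, with r = 0.41, permutation adjusted p = 0.153). Jun, the usual partner of Fos, had r = -0.03 with Fos, and Fosl1 had r = -0.09 with it. The pairs among Fosb, Atf3 and Egr1, 3 in all, passed in each of 7 alternative settings, with r between 0.56 and 0.90. The count of pairs called was 7 without tumors, 5 without the libraries after DSS, 7 without WT tumor replicate 3, 12 without the library labelled Mtg16-null distal replicate 2, 9 with length and GC trends removed and 10 with request means subtracted as well. The 2 pairs gained without the library labelled Mtg16-null distal replicate 2 were Jun with Fosl2 (r = 0.62, permutation adjusted p = 0.00315) and Fosl1 with Atf3 (r = 0.45, permutation adjusted p = 0.0272). Without tumors 1 of the 7 was negative, Jun with Ier2 (r = -0.55). Ier2, Junb and Jund are all among the genes richest in GC (97.1st percentile and above), and in the fit with length and GC trends removed Jund with Ier2 fell to r = 0.33 (permutation adjusted p = 0.308) and Junb with Jund to 0.29 (permutation adjusted p = 0.308), while Junb with Ier2 passed at 0.55. Egr1 with Ier2 no longer passed there either (r = 0.53, permutation adjusted p = 0.0826), and Fos with Junb (0.54) and with Ier2 (0.71) did.

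**Figure D5:**
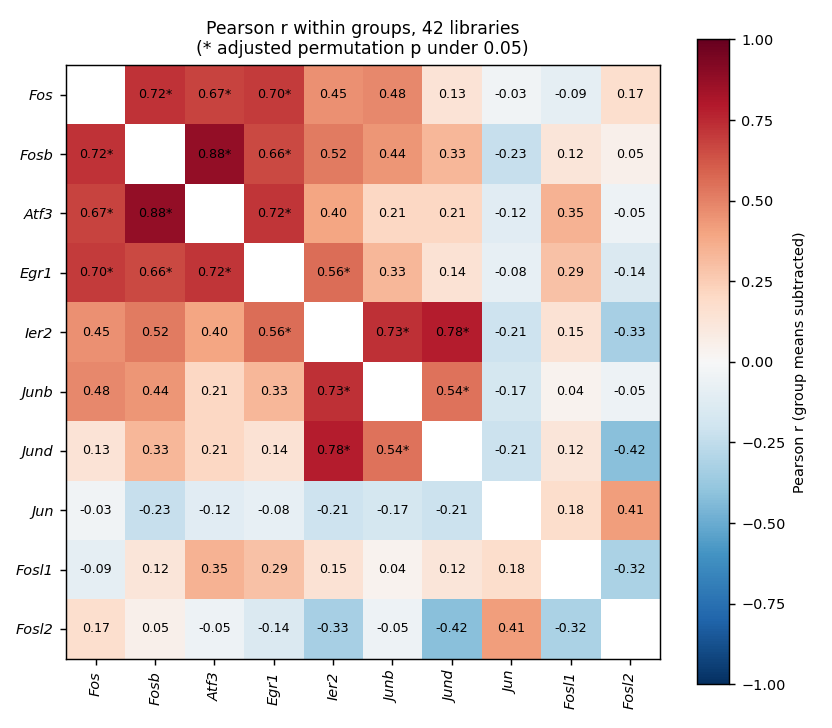
Pearson r of each pair of the 10 genes over 42 libraries after subtraction of group means, from -1 (blue) to 1 (red), with an asterisk for an adjusted permutation p under 0.05. Fos, Fosb, Atf3 and Egr1 form a block with r from 0.66 to 0.88, Ier2 stands with Junb and Jund (0.73 and 0.78), and Jun, Fosl1 and Fosl2 have no marked pair by this measure.

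Outside the list, the genes most like Fos and Fosl1 in this measure were taken from 13114 genes with at least 1 RPM on average. For Fos these were Hbegf (r = 0.71), a growth factor of the EGF family, then Strc (0.67), Foxn1 (0.67), Ahnak2 (0.65) and Fam214b (0.65). For Fosl1 these were Epha2 (0.73), a receptor tyrosine kinase, Slc29a2 (0.73), Tubb2a (0.67), Pvr (0.66) and Rbpms (0.65). Without the library labelled Mtg16-null distal replicate 2 Hbegf stood at 0.69 with Fos, and Epha2 at 0.81 and Slc29a2 at 0.71 with Fosl1. Without tumors Hbegf stood at 0.64, Epha2 at 0.77 and Slc29a2 at 0.79. These are the top of a ranking and carry no test.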

How the data were processed

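Poly(A) RNA libraries (NEBNext Ultra II) of mouse colon crypts and tumors were sequenced. The authors trimmed reads with fastp 0.20.0, estimated counts with Salmon 1.3.0 against GENCODE vM21 (GRCm38), and divided them by DESeq2 1.26.0 size factors in R 3.6.3, separately for each of 9 tables, so the deposited values are a signal in normalized counts rather than raw counts. The tables also hold the authors' own fold changes and p-values, which were not used. The tables have 59 library columns from 42 libraries, 14 of which stand in more than 1 table (for 10 of these the reads were recovered from each and were the same). Whole reads were recovered in 7 of the 9 tables (100.0% of values whole within 0.01), not in those of the proximal mutants. Levels in RPM rest on these reads, or on normalized totals for 4 libraries.

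Each table was fitted across all genes with limma 3.58.1 (R 4.3.3, trend on) on log2(normalized count + 1). Genes averaging under 10 normalized counts over a table were left out, p-values were adjusted over all genes by Benjamini-Hochberg, and the threshold was 0.05. The fold scale understates changes of low genes. Tables sharing control libraries are not independent. Single values were tested by two-sided exact permutation over libraries. Differences between effects used the log2 differences and standard errors of 2 tables. Fits of the recovered reads by DESeq2 1.42.0 and edgeR 4.0.16, another pseudocount, no filter, TMM rescaling, covariates, blocks and leaving out each library were alternatives. The removal of length and GC trends, and leaving out the library with the doubtful segment label and one tumor in the correlations, were added after the values were seen. The limma, edgeR and DESeq2 fits and the test of differences between effects were tried on simulated data, and the removal of length and GC trends was not.

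Replicate numbers were examined for pairing by the correlation of deviations from group means over genes. Among comparisons with 3 or more pairs, only that of the null colony after DSS had every pair over 0.1 (r = 0.55, 0.46 and 0.32), and a blocked fit is printed for that comparison, a pairing taken from the data and not from the labels. With 2 pairs, r was 0.15 in each proximal mutant comparison.

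The 10 genes and all lists were chosen with earlier results of these data known. All 10 are named in each table. From each list, at most 4 genes per comparison are named, those that passed, did not overlap and had the largest difference. As most like Fos and Fosl1 the 5 genes with the highest r are named. Python 3.11.15 was used for the rest.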

Additional observations from a re-analysis of the deposited data

Results flagged for a closer look

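For the 10 genes in the groups of 4 to 7 libraries, 60 tests were made for a single library far from the rest of its group and 4 were found, and chance alone gives about 1 in 20. Jun was at 6608 normalized counts in the library labelled Mtg16-null distal replicate 2, against 3035 to 3564 in the other 3 of the group. That library is the one whose Hoxd13 was at 0. Jund was at 19735 in WT distal replicate 3 of the null colony, against 14940.3 to 15749 in the other 3. In the segment table Fosl1 was at 54.0 in WT distal replicate 4 of the null colony, against 3.46 to 19.2 in the other 6 distal libraries. In the same table Atf3 was at 1849.6 in WT distal replicate 1 of the P209T colony, against 830.2 to 1222 in the other 6.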

How the results depend on the processing

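Of 1240 alternative values for the 90 log2 differences of the 10 genes, 1176 kept their side of the threshold, 50 of them with a change of sign of less than 1 SE and the rest in the same direction, while 31 reversed, 21 lost and 12 gained the call. Causes were not tested. With length and GC trends removed, the DSS differences were Fos -0.55, Fosb -0.21, Fosl2 -0.20, Jun -0.27, Junb -0.63, Jund -0.20 and Ier2 -0.47, with 4 of the 10 genes called. The median of all genes in that fit was -0.30, and Fosb, Fosl2, Jun and Jund stayed above it. Jund (-0.036) and Ier2 (-0.12) changed sign for T/T at distal baseline (median -0.051), and Ier2 (-0.040) for Mtg16-null after DSS (median 0.0059). Atf3 (0.018) and Ier2 (0.18) did so for T/T after DSS (median 0.12). Relative to these medians Jund and Atf3 kept their side. Jund (-0.15) and Atf3 (-0.24) reversed between segments with request as a covariate and within request 4149, where 2 and 1 of the 10 genes and 3189 and 1827 of all genes passed. Single leave-outs reversed these differences, which then ranged as follows. After DSS Fosb ranged from -0.21 to 0.99. For Mtg16-null in proximal crypts the range was -0.55 to 0.54 for Fos, -0.84 to 0.68 for Egr1, -0.15 to 0.20 for Fosl2 and -0.21 to 0.18 for Jund, and in distal crypts -0.060 to 0.31 for Jun. For T/T in proximal crypts it was -0.24 to 0.66 for Fosb, -0.62 to 1.4996 for Fosl1, -0.10 to 0.15 for Ier2, -0.16 to 0.074 for Jund, -0.25 to 0.039 for Atf3 and -1.01 to 0.072 for Egr1. In tumors it was -0.37 to 0.065 for Jun, -0.41 to 0.0064 for Jund and -0.95 to 0.018 for Atf3. With 2 libraries a side a lone library is assumed to vary like the others.

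Leaving out single libraries, the genes called ranged from 1 to 9073 after DSS (0 to 5 of the 10), 6 to 18 and 2 to 146 for Mtg16-null in proximal and distal crypts, 0 to 140 and 0 to 8 for T/T in them, 18 to 106 for Mtg16-null after DSS, 0 to 3 for T/T after DSS and 0 to 1 in tumors. The replicate block, which outside the Mtg16-null crypts after DSS joins libraries known to share only a number, gave 0 of the 10 and 2679 genes after DSS, 32 and 1 genes for Mtg16-null and 151 and 0 for T/T in proximal and distal crypts, and 1 of the 10 (Jun) and 1271 genes for Mtg16-null after DSS. The block also moved the segment calls of Fosb (adjusted p = 0.00691 by limma) and Ier2 (adjusted p = 0.082 by limma). DESeq2 called 200 genes for Mtg16-null and 53 for T/T in distal crypts, 727 and 334 after DSS, and 24 in tumors. Fosl1 in tumors is not read from that fit, since its difference was known when it was chosen. Request as a covariate, request 4149 and request 5094 gave 8, 1 and 0 genes for Mtg16-null in distal crypts, no filter 2 for T/T in proximal crypts and 1 in tumors, and removed trends 307 for Mtg16-null after DSS. Without the libraries after DSS 5 pairs of genes varied together. Fosl1 rests on 3 to 50 reads per library in the DSS table.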
